A study of Homo sapiens and Mus musculus with 56 samples.

Results

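The genes described here are 40 genes of the lysosome, taken by their symbols and chosen with earlier results of these data known. They comprise 9 cathepsins and other lysosomal peptidases, 11 glycosidases, 4 sulfatases, 8 genes of lipid hydrolysis and lipid transfer, 7 membrane proteins and TFEB, a transcription factor of lysosomal genes. On the human array 38 of the 40 had a probe set annotated to their symbol alone, out of 19775 such genes, and GLB1 and CD68 had none. On the mouse array 39 of 40 orthologs were measured, out of 18193 genes, and Cd63 had no such probe set. Each gene was read on 1 probe set, the one with the highest mean over all arrays of its species. To be tested in a cell model, a gene had to exceed percentile 40 of the signals on 2 or more of its arrays. All 38 members passed in REH and MOLM-13, all 39 in the mouse cells, and 37 in RS4;11 and SEM, where CTSL (log2 signal 2.56 to 3.42) did not.

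RNA was profiled on 44 human and 12 mouse Affymetrix arrays from 5 leukaemia cell models, to compare inhibition of DOT1L, of menin and of both. EPZ004777 inhibits DOT1L, the methyltransferase of histone H3 lysine 79, and MI-2-2 blocks the binding of menin to KMT2A (MLL), on which KMT2A fusion proteins depend. RS4;11 and SEM are human B-precursor lymphoblastic lines with a KMT2A-AFF1 fusion, REH is a B-precursor line without a KMT2A rearrangement, MOLM-13 is a human acute myeloid line with KMT2A-MLLT3 (MLL-AF9), and the mouse cells are leukaemic cells transformed by MLL-AF9. RS4;11, SEM and REH received DMSO, 3 µM EPZ004777, 10 µM MI-2-2 or the combination for 6 days. MOLM-13 and the mouse cells received DMSO, 3 µM EPZ004777, 3 µM MI-2-2 or the combination for 4 days, and the mouse medium held interleukin-6, interleukin-3 and stem cell factor. For the combination the doses of each compound alone were assumed. Groups held 3 arrays, labelled as biological replicates, except 2 for RS4;11 DMSO and 2 for SEM DMSO, MI-2-2 and combination. Each human model is a single cell line, so that the comparisons hold for that line.

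Lysosomes break down proteins, glycans and lipids with acid hydrolases, which reach them from the Golgi, while membrane proteins keep the lumen acidic, shield the membrane and export the products. TFEB and its relatives bind a short palindromic element in the promoters of many lysosomal genes and raise their transcription when nutrients are scarce. Macrophages and granulocytes are rich in lysosomes, and several cathepsins, among them CTSS of antigen presentation and CTSC, which activates the serine proteases of granules, differ strongly between blood cell types.

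All values are log2 signals, on which a difference of 1 is a 2-fold change, and a gene was called at a limma adjusted p under 0.05 (Benjamini-Hochberg, over all genes tested in that model). With DMSO, the mean signal over the 5 measured B-lineage markers was 10.35 to 11.84 in the lymphoid lines and 5.03 to 5.29 in MOLM-13. The mean over the 11 measured myeloid markers was 8.66 to 8.71 in MOLM-13 and 5.09 to 6.00 in the lymphoid lines. Signal near the 3' end over that near the 5' end of a control transcript, a sign of RNA or amplification quality, differed between some arrays. In the mouse combination the GAPDH value was 0.60 on replicate 1, 1.50 on replicate 2 and 2.05 on replicate 3, against 0.44 to 0.65 on the other mouse arrays, and so mouse combination changes of the called members described below are given with and without these arrays. An REH array stood apart in the B-lineage markers: DMSO replicate 1 had a mean of 11.37, against 10.32 to 10.61 on the other REH arrays. It read 7.69 for VPREB1, a gene of the pre-B cell receptor, against 2.88 to 4.24 on the others. REH changes and differences from REH use this array. Values without it are given below for the called REH combination changes and for the counts of differences from REH. Why it stood apart was not tested. In REH the 3 DMSO arrays had actin values of 2.75 to 3.65 and the treated arrays 2.36 to 2.87. SEM arrays with MI-2-2 or the combination had actin values of 1.83 to 1.93, and those with DMSO or EPZ004777 2.32 to 2.48, without overlap, so that treatment and this value cannot be told apart there. With it as a covariate no SEM member was called against DMSO, and the shares of all genes in that fit are not given here. Changes are given as the limma estimate ± its standard error (SE).

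EPZ004777 alone changed few of these genes in the lymphoid lines, and MI-2-2 alone changed several in SEM. With the combination most were called in MOLM-13 and the mouse cells, mainly higher, but 49.5% and 64.7% of all genes were called there too. In the mouse cells the total share of members called was near that of all genes. In RS4;11, EPZ004777 against DMSO gave 0 members called higher and 1 lower (6.59% of all genes, 4.51% higher and 2.08% lower). It gave 0 higher and 4 lower in SEM (8.66% of all genes, 4.55% higher and 4.12% lower) and 1 higher and 1 lower in REH (3.95% of all genes, 2.82% higher and 1.13% lower). In MOLM-13 it gave 12 higher and 1 lower (27.8% of all genes, 15.3% higher and 12.5% lower), and in the mouse cells 3 higher and 0 lower (5.6% of all genes, 4.22% higher and 1.38% lower). MI-2-2 gave 1 higher and 3 lower in RS4;11 (12.7% of all genes, 5.89% higher and 6.84% lower) and 8 higher and 4 lower in SEM (17.8% of all genes, 9.32% higher and 8.47% lower). In MOLM-13 it gave 4 higher and 2 lower (18.6% of all genes, 10.2% higher and 8.36% lower), and in the mouse cells 2 higher and 0 lower (5.26% of all genes, 3.24% higher and 2.02% lower). In REH limma called 0 members under MI-2-2 (1.25% of all genes, 0.396% higher and 0.85% lower). There 9 of 38 had an unadjusted p under 0.05 (23.7%, against 18.9% of all genes), 1 higher and 8 lower. Without DMSO replicate 2 of REH, 12 members were called under MI-2-2, and the share of all genes in that fit is not given here.

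With the combination, 9 members were called in RS4;11, 7 higher and 2 lower (23.7% of all genes, 11.2% higher and 12.4% lower). In SEM they numbered 17, 12 higher and 5 lower (29.6% of all genes, 14.3% higher and 15.2% lower), and in REH 3, 2 higher and 1 lower (7.03% of all genes, 4.1% higher and 2.93% lower). In MOLM-13 they numbered 26 of 38, 23 higher and 3 lower (49.5% of all genes, 23.7% higher and 25.8% lower). The mouse cells had 26 of 39, 21 higher and 5 lower (64.7% of all genes, 28.5% higher and 36.2% lower). In SEM 32.4% of members were higher against 14.3% of all genes, and 13.5% lower against 15.2%. In RS4;11 and REH the share called, in total, was near that of all genes, and so it was in the mouse cells, where only the split by direction stood apart. The median change over the members was 0.30 in MOLM-13 (all genes 0.00), 0.40 in the mouse cells (all genes -0.10), 0.06 in SEM (all genes -0.02), 0.00 in RS4;11 (all genes -0.04) and -0.18 in REH (all genes 0.00). Since RNA came from whole cultures, a change in the make-up of the cells and a change of RNA per cell cannot be told apart.

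**Figure D1:**
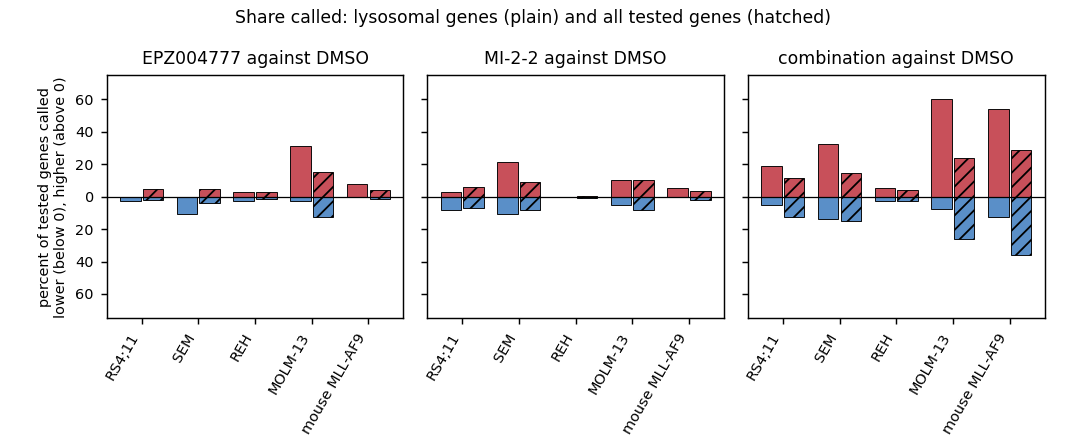
Percent of the tested lysosomal genes (plain bars) and of all tested genes (hatched bars) called higher (above 0) or lower (below 0) at a limma adjusted p under 0.05, by cell model, in 3 panels for EPZ004777, MI-2-2 and the combination against DMSO. With the combination, 60.5% of the members were called higher in MOLM-13 against 23.7% of all genes, and 53.8% in the mouse cells against 28.5%.

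Over the 5 models, 7 members rose with the combination in 3 models, and none in 4: TPP1, FUCA1, PSAP and TFEB in SEM, MOLM-13 and the mouse cells, NPC2 and GM2A in RS4;11, SEM and MOLM-13, and ARSA in RS4;11, MOLM-13 and the mouse cells. CTSC fell in 4 models, all of them human, and CTSH fell in 3. CTSH, GLA, GUSB, MANBA, NPC1 and MCOLN1 rose in at least 1 model and fell in another. GAA, LAMP1 and SCARB2 were called in no model. For all genes, the shares called in several models or in none are not given here, so these counts only describe the members. Whichever single array was left out, the combination calls held for 21 of 26 members in MOLM-13 (not LAMP2, LIPA, NAGLU, PSAP and TFEB) and for 21 of 26 in the mouse cells (not Cd68, Ctsb, Ctsl, Glb1 and Lamp2). They held for 13 of 17 in SEM (not GLA, MCOLN1, TFEB and TPP1), 4 of 9 in RS4;11 (not ARSA, ASAH1, MANBA, NPC2 and SMPD1) and 1 of 3 in REH, which was CTSC. None of the EPZ004777 calls in RS4;11, SEM and the mouse cells, and none of the MI-2-2 calls in the mouse cells, held in this way.

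**Figure D2:**
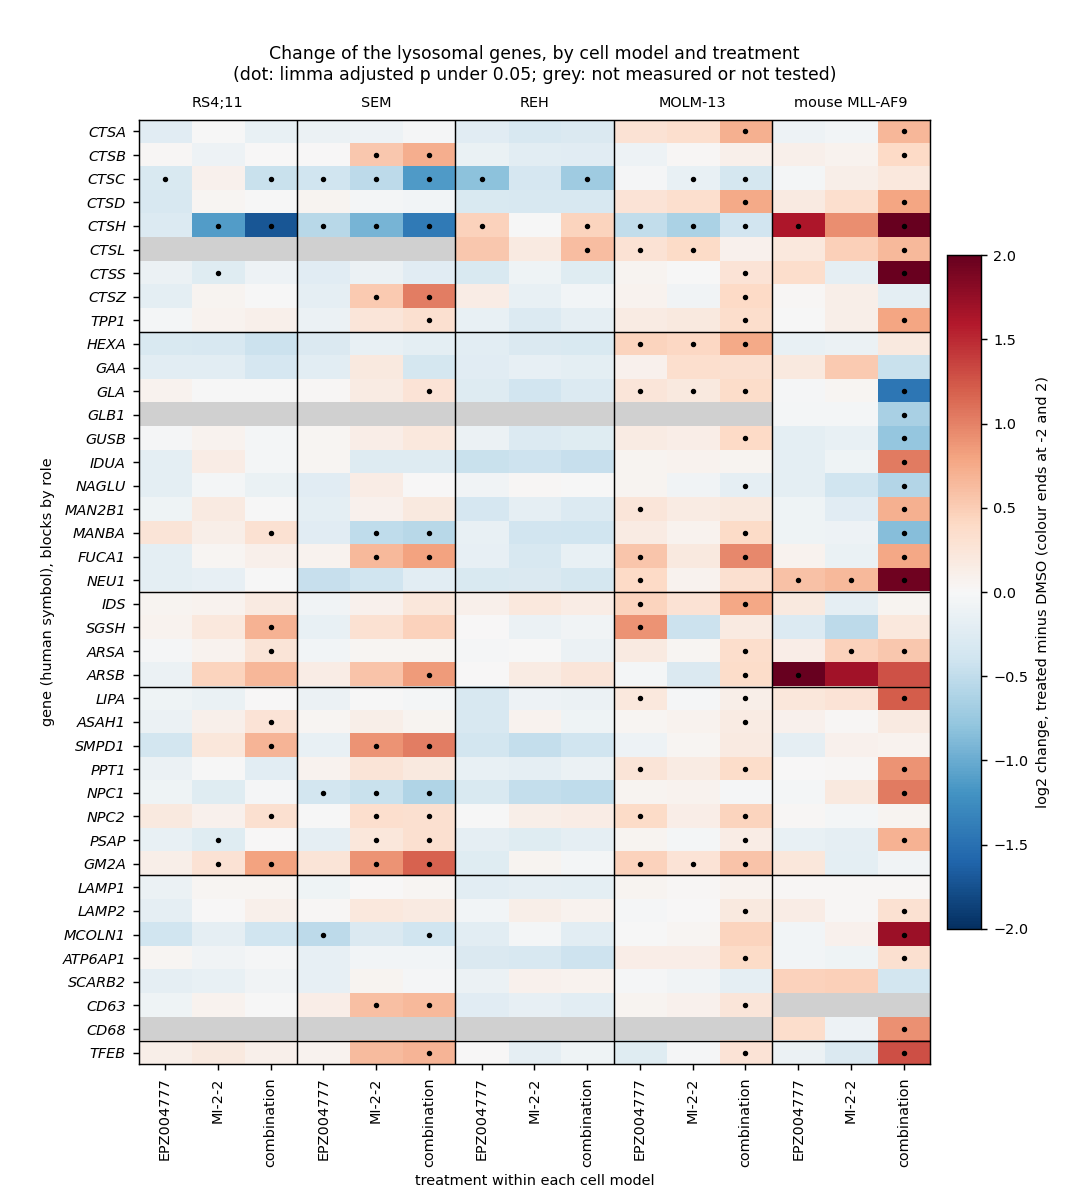
Log2 change against DMSO of each of the 40 genes (rows, human symbols, in blocks by role) under EPZ004777, MI-2-2 and the combination in the 5 cell models (columns); red is higher, blue is lower, colours end at -2 and 2, dots mark a limma adjusted p under 0.05, and grey marks genes not measured or not tested. CTSH and CTSC are blue in most human columns with a dot, and the combination columns of MOLM-13 and the mouse cells hold 26 dots each.

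Among the peptidases, CTSH, a cathepsin that trims peptides from their ends, changed most, and in opposite directions between the models. In RS4;11 its signal was 9.27 and 9.27 on the DMSO arrays, 8.98, 8.94 and 9.08 with EPZ004777, 8.04, 8.34 and 8.10 with MI-2-2 and 7.40, 7.45 and 7.84 with the combination. Every MI-2-2 and combination array thus lay below every DMSO array, and the combination was lowest. The change was -1.11 ± 0.13 (limma adjusted p = 0.000294) with MI-2-2 and -1.71 ± 0.13 (limma adjusted p = 4.37e-06) with the combination. SEM arrays started far lower, at 5.52 and 5.71 with DMSO, and read 5.24, 4.86 and 5.11 with EPZ004777, 4.72 and 4.66 with MI-2-2 and 4.10 and 4.30 with the combination. All treated SEM arrays lay below the DMSO arrays, and on all MI-2-2 and combination arrays the signal was below percentile 40 of the array. The SEM change was -0.55 ± 0.12 (limma adjusted p = 0.032) with EPZ004777, -0.93 ± 0.13 (limma adjusted p = 0.00284) with MI-2-2 and -1.42 ± 0.13 (limma adjusted p = 0.000172) with the combination. CTSH passed the filter in SEM only through its DMSO and EPZ004777 arrays, so that the MI-2-2 and combination changes there are a description.

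In MOLM-13 CTSH read 10.23, 10.32 and 10.15 with DMSO, 9.71, 9.75 and 9.73 with EPZ004777, 9.38, 9.72 and 9.70 with MI-2-2 and 9.80, 9.96 and 9.78 with the combination. It fell with each treatment, by the most with MI-2-2 (-0.63 ± 0.09, limma adjusted p = 0.000686). The fall with the combination (-0.38 ± 0.09, limma adjusted p = 0.00408) was smaller than that with MI-2-2 by 0.25 ± 0.09 (limma adjusted p = 0.0447). REH arrays read 7.59, 8.02 and 7.79 with DMSO and 8.28, 8.30 and 8.16 with the combination, a rise of 0.45 ± 0.11 (limma adjusted p = 0.0274). Without REH DMSO replicate 1 the rise was 0.34 and was not called (adjusted p = 0.0627). With replicates 1 and 3 left out, which leaves 1 DMSO array, it was 0.23 and was not called (adjusted p = 0.319). Mouse Ctsh read 6.70, 8.29 and 8.33 with DMSO, 9.60, 9.92 and 8.65 with EPZ004777, 8.67, 8.82 and 8.61 with MI-2-2 and 12.44, 12.36 and 12.33 with the combination. The DMSO arrays of the mouse cells were spread over 1.63, with replicate 1 lowest, yet all combination arrays stood well above all others. The rise with the combination was 4.61 ± 0.41 (limma adjusted p = 3.38e-06), and it was 4.58 without combination replicate 1 and 4.67 with replicate 1 alone.

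CTSC, dipeptidyl peptidase I, fell in the human models. In SEM it read 12.32 and 12.29 with DMSO, 11.96, 11.85 and 11.89 with EPZ004777, 11.79 and 11.77 with MI-2-2 and 11.14 and 11.20 with the combination, 4 groups without overlap. Its change there was -0.40 ± 0.06 (limma adjusted p = 0.00799) with EPZ004777, -0.53 ± 0.07 (limma adjusted p = 0.00164) with MI-2-2 and -1.14 ± 0.07 (limma adjusted p = 1.56e-05) with the combination. In REH, the line without a KMT2A rearrangement, it read 10.62, 10.37 and 10.35 with DMSO, 9.64, 9.76 and 9.47 with EPZ004777 and 9.64, 9.66 and 9.90 with the combination. Both treated groups lay below all DMSO arrays, with changes of -0.83 ± 0.11 (limma adjusted p = 0.00123) and -0.71 ± 0.11 (limma adjusted p = 0.00243). With DMSO replicates 1 and 3 left out, which leaves 1 DMSO array, they were -0.75 and -0.64 and stayed called. Without replicate 1 alone they were -0.74 and -0.63, both called. In RS4;11 CTSC read 11.99 and 11.97 with DMSO, 11.67, 11.60 and 11.74 with EPZ004777 and 11.58, 11.47 and 11.54 with the combination, and fell by 0.31 and 0.45 (limma adjusted p = 0.0193 and 0.000627). The change in MOLM-13 was -0.36 ± 0.04 (limma adjusted p = 3.99e-05) with the combination. Of the 3 other CTSC probe sets, 1 did not fall with the combination in RS4;11 (0.10) or MOLM-13 (0.07) and changed by -0.08 in SEM, while the changes of the other two were negative in all 4 human lines.

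**Figure D3:**
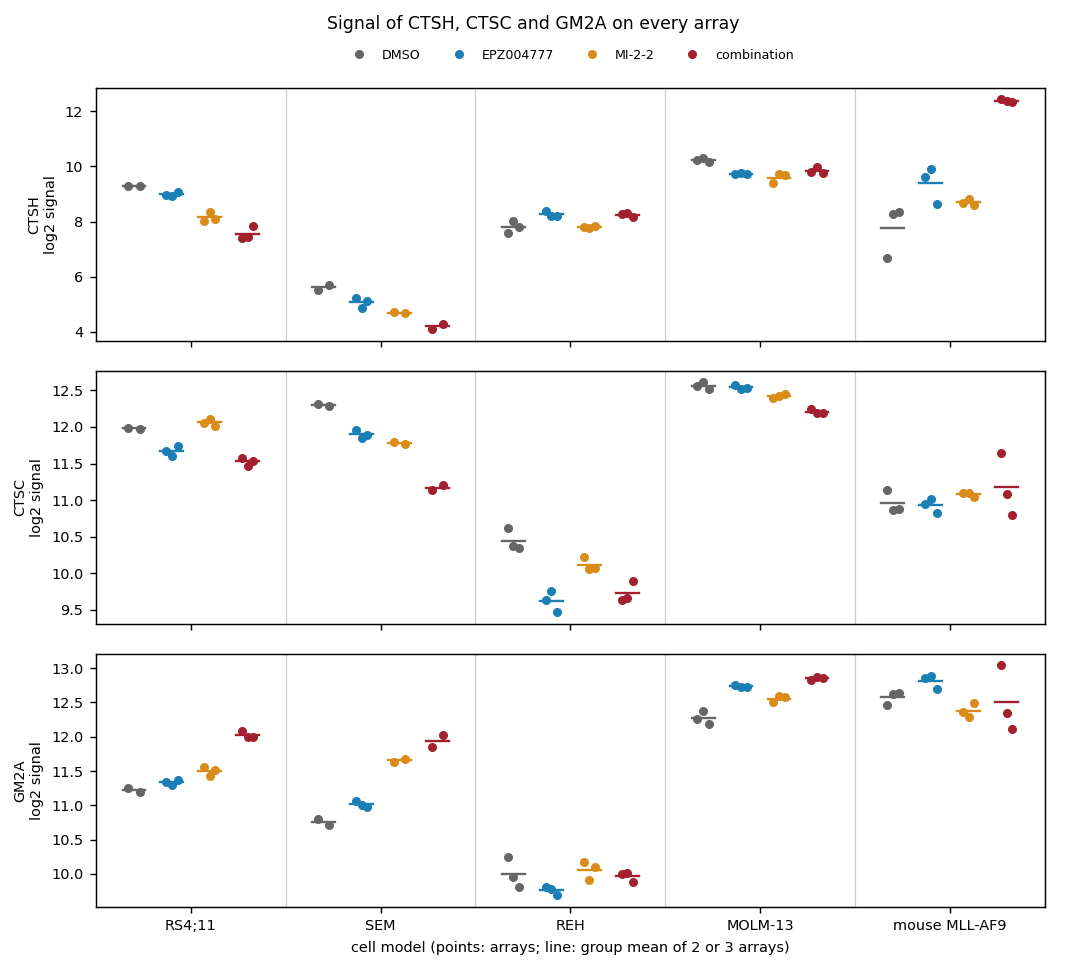
Log2 signal of CTSH, CTSC and GM2A (3 panels, human and mouse orthologs) on every array of the 5 cell models; points are arrays coloured by treatment and lines are means of 2 or 3 arrays. CTSH falls from 9.27 to between 7.40 and 7.84 with the combination in RS4;11 and lies between 12.33 and 12.44 with the combination in the mouse cells, above all other mouse arrays. GM2A is higher with the combination in RS4;11, SEM and MOLM-13, and within the DMSO range in REH.

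The other peptidases rose where they were called with the combination. In SEM these were 3 of 8 tested (14.3% of all genes were called higher): CTSZ, a carboxypeptidase, read 8.39 and 8.26 with DMSO and 9.37 and 9.32 with the combination (1.02 ± 0.12, limma adjusted p = 0.000685), CTSB rose by 0.73 ± 0.08, and TPP1 was the third. In MOLM-13 the aspartic protease CTSD read 8.62, 8.40 and 8.54 with DMSO and 9.23, 9.37 and 9.25 with the combination, a rise of 0.76 ± 0.11 (limma adjusted p = 0.000134). CTSA, which protects NEU1 and beta-galactosidase in a complex, rose by 0.72 ± 0.11 (limma adjusted p = 0.000312) in MOLM-13. In the mouse cells 7 of 9 peptidases rose (28.5% of all genes were called higher), and mouse Ctsd changed by 0.79 ± 0.11 (limma adjusted p = 7.69e-05), or 0.67 without combination replicate 1 and 1.02 with replicate 1 alone. Mouse Ctss read 9.79, 11.58 and 11.57 with DMSO and 13.27, 13.00 and 12.60 with the combination. Replicate 1 of DMSO was 1.78 below the other DMSO arrays, and the groups did not overlap. Its rise was 1.98 ± 0.56 (limma adjusted p = 0.00993), or 1.82 without combination replicate 1 and 2.29 with replicate 1 alone. In REH, CTSL read 7.16, 6.74 and 7.27 with DMSO and 7.90, 7.43 and 7.69 with the combination (0.61 ± 0.17, limma adjusted p = 0.045), which without DMSO replicate 1 was 0.66 and not called (adjusted p = 0.0702). CTSD was not called in RS4;11 (-0.01), SEM (-0.06) or REH (-0.32) with the combination.

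The glycosidases, which remove sugars from glycoproteins and glycolipids, rose in MOLM-13 and split in the mouse cells. With the combination 5 higher and 1 lower of 10 tested were called in MOLM-13 and 4 higher and 5 lower of 11 in the mouse cells, with median changes of 0.34 and -0.44 (all genes 0.00 and -0.10). Of all genes, 23.7% were called higher and 25.8% lower in MOLM-13. In the mouse cells 28.5% were called higher and 36.2% lower, a similar split by direction. FUCA1, which removes fucose, read 10.77, 10.54 and 10.63 on the MOLM-13 DMSO arrays, 11.18, 11.24 and 11.19 with EPZ004777, 10.56, 10.94 and 11.00 with MI-2-2 and 11.62, 11.56 and 11.62 with the combination. EPZ004777 and combination arrays lay above all DMSO arrays, and the MI-2-2 arrays overlapped them. The change was 0.56 ± 0.10 (limma adjusted p = 0.00228) with EPZ004777 and 0.96 ± 0.10 (limma adjusted p = 1.81e-05) with the combination. HEXA, the alpha subunit of beta-hexosaminidase, rose in MOLM-13 with every treatment, by 0.45 ± 0.06 with EPZ004777, 0.41 ± 0.06 with MI-2-2 and 0.76 ± 0.06 (limma adjusted p = 2.73e-06) with the combination. GUSB, beta-glucuronidase, rose there with the combination by 0.41 ± 0.08 (limma adjusted p = 0.00149). In SEM, FUCA1 read 8.71 and 8.72 with DMSO, 9.23 and 9.49 with MI-2-2 and 9.50 and 9.54 with the combination. It rose by 0.65 ± 0.10 (limma adjusted p = 0.00476) and 0.81 ± 0.10 (limma adjusted p = 0.000899). MANBA, beta-mannosidase, fell in SEM with the combination by 0.56 ± 0.10 (limma adjusted p = 0.00514) and rose in RS4;11 by 0.31 ± 0.09 (limma adjusted p = 0.0236). With the actin value as a covariate the SEM change was 0.040 and was not called (adjusted p = 0.992).

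In the mouse cells Neu1, the lysosomal sialidase, was the glycosidase that rose most. It read 10.41, 10.41 and 10.38 with DMSO, 11.00, 11.01 and 10.94 with EPZ004777, 11.00, 11.08 and 11.05 with MI-2-2 and 11.94, 12.53 and 12.59 with the combination. All treated arrays lay above all DMSO arrays, and all combination arrays above those of the single compounds. The rise was 0.58 ± 0.14 (limma adjusted p = 0.0418) with EPZ004777, 0.64 ± 0.14 (limma adjusted p = 0.0269) with MI-2-2 and 1.95 ± 0.14 (limma adjusted p = 7.8e-07) with the combination. The last was 2.16 without combination replicate 1 and 1.54 with replicate 1 alone. Idua, which cleaves iduronate from glycosaminoglycans, read 8.99, 9.36 and 9.23 with DMSO and 9.77, 10.44 and 10.48 with the combination (1.04 ± 0.19, limma adjusted p = 0.000599; 1.27 without combination replicate 1 and 0.58 with replicate 1 alone). The other arm of the group fell.

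Mouse Gla, alpha-galactosidase A, read 11.28, 11.13 and 11.11 with DMSO and 10.19, 9.56 and 9.42 with the combination, with no overlap. Its change was -1.45 ± 0.17 (limma adjusted p = 2.44e-05), or -1.68 without combination replicate 1 and -0.98 with replicate 1 alone. A second Gla probe set changed by 0.63, the opposite way. With the mean of both the change was -0.25 and not called (adjusted p = 0.127). Manba fell by 0.85 ± 0.12 (-0.99 without combination replicate 1 and -0.55 with replicate 1 alone; limma adjusted p = 0.000105) and Gusb by 0.78 ± 0.10 (-0.88 without combination replicate 1 and -0.58 with replicate 1 alone; limma adjusted p = 4.41e-05). Glb1, beta-galactosidase, read 10.39, 10.59 and 10.62 with DMSO and 10.44, 9.43 and 9.77 with the combination, so that replicate 1 lay among the DMSO arrays and replicates 2 and 3 below them. Its change of -0.66 ± 0.21 (limma adjusted p = 0.0176) was -0.93 without combination replicate 1 and -0.10 with replicate 1 alone, the last not called (adjusted p = 0.569). Naglu, which removes N-acetylglucosamine from heparan sulfate, changed by -0.58 ± 0.14 (limma adjusted p = 0.0032), or -0.54 without combination replicate 1 and -0.67 with replicate 1 alone.

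Sulfatases, which strip sulfate from glycosaminoglycans and sulfatides, were called lower with no treatment in any model, and with the combination 3 of 4 rose in MOLM-13, 2 in RS4;11 and 1 each in SEM and the mouse cells. All genes called higher were 23.7% in MOLM-13, 11.2% in RS4;11, 14.3% in SEM and 28.5% in the mouse cells. IDS, iduronate sulfatase, read 10.96, 10.57 and 10.67 with DMSO, 11.19, 11.17 and 11.19 with EPZ004777 and 11.53, 11.49 and 11.52 with the combination in MOLM-13. It rose by 0.45 ± 0.09 (limma adjusted p = 0.00481) and 0.78 ± 0.09 (limma adjusted p = 4.37e-05). SGSH, sulfamidase, was the member that rose most in MOLM-13 with EPZ004777 (8.70, 8.45 and 8.61 with DMSO, 9.26, 9.29 and 9.89 with EPZ004777; 0.89 ± 0.16, limma adjusted p = 0.00226). With the combination its MOLM-13 signal was 8.64, 8.96 and 8.72, below all EPZ004777 arrays by a mean of 0.71 ± 0.16 (limma adjusted p = 0.00663). In RS4;11 SGSH rose with the combination, from 8.27 and 8.13 to 8.91, 8.67 and 9.12 (0.70 ± 0.12, limma adjusted p = 0.00148). ARSB, arylsulfatase B, read 7.34 and 6.99 with DMSO and 7.77 and 8.25 with the combination in SEM (0.85 ± 0.17, limma adjusted p = 0.00666).

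Mouse Arsb was the member with the largest spread among combination arrays. It read 8.73, 8.73 and 8.85 with DMSO, 11.28, 11.28 and 11.17 with EPZ004777, 10.37, 10.63 and 10.36 with MI-2-2 and 11.75, 9.14 and 9.24 with the combination. Replicate 1 of the combination lay above the EPZ004777 arrays, and replicates 2 and 3, which had the high GAPDH values, lay between DMSO and the single compounds. The rise with EPZ004777 was 2.47 ± 0.53 (limma adjusted p = 0.02), while the combination (1.27 ± 0.53) was not called. The part of RNA quality in this spread was not tested.

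Among the genes of lipid breakdown and transfer, GM2A, the activator protein that presents the ganglioside GM2 to beta-hexosaminidase, rose in 3 of the 4 human lines. In RS4;11 it read 11.25 and 11.19 with DMSO, 11.34, 11.29 and 11.37 with EPZ004777, 11.56, 11.43 and 11.52 with MI-2-2 and 12.08, 12 and 12 with the combination. In SEM the values were 10.80 and 10.71, 11.06, 11.01 and 10.98, 11.63 and 11.68, and 11.85 and 12.02 in the same order. In both lines all MI-2-2 and combination arrays lay above all DMSO arrays, and the combination arrays above all others. The rise in RS4;11 was 0.28 ± 0.06 (limma adjusted p = 0.0166) with MI-2-2 and 0.81 ± 0.06 (limma adjusted p = 6.29e-06) with the combination. SEM rose by 0.90 ± 0.08 (limma adjusted p = 0.000303) and 1.18 ± 0.08 (limma adjusted p = 3.06e-05). In MOLM-13 GM2A read 12.26, 12.38 and 12.19 with DMSO and 12.83, 12.87 and 12.86 with the combination, and it rose by 0.46 ± 0.05 with EPZ004777, 0.28 ± 0.05 with MI-2-2 and 0.58 ± 0.05 (limma adjusted p = 5.18e-06) with the combination. REH arrays read 10.24, 9.96 and 9.81 with DMSO and 10.00, 10.01 and 9.88 with the combination, which overlapped (-0.04 ± 0.11, not called).

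SMPD1, acid sphingomyelinase, rose with the combination in both KMT2A-AFF1 lines. In SEM it read 5.48 and 4.90 with DMSO, 6.02 and 6.17 with MI-2-2 and 6.25 and 6.19 with the combination. The SEM changes were 0.91 ± 0.19 (limma adjusted p = 0.0157) and 1.03 ± 0.19 (limma adjusted p = 0.00556). With the actin value as a covariate they turned to -0.50 and -0.33, not called (adjusted p = 0.949 and 0.961). In RS4;11 SMPD1 changed by 0.68 ± 0.14 (limma adjusted p = 0.0063) with the combination. NPC1 and NPC2, which hand cholesterol from the lysosome to the cell, moved apart in SEM. NPC1 read 10.17 and 10.06 with DMSO and 9.54 and 9.50 with the combination (-0.60 ± 0.08, limma adjusted p = 0.00114). NPC2 read 12.16 and 12.18 with DMSO and 12.49 and 12.50 with the combination (0.33 ± 0.06, limma adjusted p = 0.00734). NPC2 also rose with the combination in RS4;11 (0.32 ± 0.07, limma adjusted p = 0.00561) and MOLM-13 (0.45 ± 0.05, limma adjusted p = 4.96e-05). In the mouse cells Npc1 rose instead, from 9.53, 9.71 and 9.65 to 10.74, 10.72 and 10.56 (1.04 ± 0.10, limma adjusted p = 5.67e-06; 1.01 without combination replicate 1 and 1.11 with replicate 1 alone). Mouse Lipa, the acid lipase of cholesteryl esters, rose by 1.22 ± 0.12 (limma adjusted p = 8.87e-06) on its chosen probe set, 1.33 without combination replicate 1 and 0.99 with replicate 1 alone. Both other Lipa probe sets changed by -0.82 and -0.79, so that its direction depends on the probe set. In MOLM-13 the LIPA change was 0.12 ± 0.04 (limma adjusted p = 0.0494) on the chosen probe set and -0.21 with the mean of its probe sets.

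PSAP, the precursor of the saposins that help enzymes reach sphingolipids, changed by 0.32 ± 0.06 (limma adjusted p = 0.00764) in SEM, 0.15 ± 0.05 (limma adjusted p = 0.0376) in MOLM-13 and 0.70 ± 0.17 (limma adjusted p = 0.00408) in the mouse cells with the combination. The mouse change was 0.59 without combination replicate 1 and 0.90 with replicate 1 alone. PPT1, which removes palmitate from proteins, rose by 0.36 ± 0.06 (limma adjusted p = 0.000544) in MOLM-13 and by 0.89 ± 0.11 (limma adjusted p = 4.35e-05) in the mouse cells (0.79 without combination replicate 1 and 1.11 with replicate 1 alone). ASAH1, acid ceramidase, rose with the combination in RS4;11 (0.28 ± 0.09, limma adjusted p = 0.04) and MOLM-13 (0.16 ± 0.04, limma adjusted p = 0.0108).

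Of the membrane proteins, LAMP1, a main glycoprotein of the lysosomal membrane, was called with no treatment in any model. Its change with the combination was 0.03 ± 0.07 in RS4;11, 0.04 ± 0.07 in SEM, -0.19 ± 0.09 in REH, 0.02 ± 0.11 in the mouse cells and 0.07 ± 0.04 in MOLM-13. In SEM the tetraspanin CD63 read 11.07 and 10.88 with DMSO, 11.53 and 11.62 with MI-2-2 and 11.54 and 11.71 with the combination. It rose by 0.60 ± 0.10 (limma adjusted p = 0.00476) and 0.65 ± 0.10 (limma adjusted p = 0.00185). MCOLN1, a cation channel that lets calcium out of lysosomes, fell in SEM with EPZ004777 (-0.52 ± 0.11, limma adjusted p = 0.0306) and with the combination (-0.39 ± 0.12, limma adjusted p = 0.046). Mouse Mcoln1 read 9.87, 10.38 and 10.27 with DMSO, 10.16, 10.15 and 10.02 with EPZ004777, 10.11, 10.45 and 10.20 with MI-2-2 and 11.38, 12.02 and 12.25 with the combination. The arrays of either compound alone overlapped those of DMSO, and all combination arrays were higher (1.71 ± 0.21, limma adjusted p = 3.63e-05; 1.96 without combination replicate 1 and 1.20 with replicate 1 alone). Replicate 1, the combination array with the lowest GAPDH value, read lowest of the 3. Cd68, a glycoprotein of macrophage lysosomes measured in mouse alone, rose by 0.92 ± 0.28 (limma adjusted p = 0.0148), or 0.74 without combination replicate 1 and 1.29 with replicate 1 alone. LAMP2 and ATP6AP1, an accessory subunit of the proton pump, rose with the combination in MOLM-13 (0.20 ± 0.06 and 0.38 ± 0.09) and the mouse cells (0.31 ± 0.11 and 0.31 ± 0.09). Mouse Lamp2 changed by 0.19 without combination replicate 1 and 0.56 with replicate 1 alone, and Atp6ap1 by 0.33 without combination replicate 1 and 0.28 with replicate 1 alone.

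TFEB itself rose with the combination in SEM, MOLM-13 and the mouse cells. Mouse Tfeb read 6.73, 7.22 and 7.21 with DMSO, 6.77, 7.01 and 7.04 with EPZ004777, 6.69, 7.01 and 6.57 with MI-2-2 and 7.83, 8.46 and 8.73 with the combination. Only the combination arrays left the range of the DMSO arrays upward, by 1.29 ± 0.23 (limma adjusted p = 0.000488), or 1.55 without combination replicate 1 and 0.77 with replicate 1 alone. In SEM TFEB read 7.08 and 7.13 with DMSO, 7.89 and 7.58 with MI-2-2 and 7.87 and 7.69 with the combination, and the combination change was 0.68 ± 0.19 (limma adjusted p = 0.0306). The MOLM-13 rise of 0.28 ± 0.09 (limma adjusted p = 0.0269) came with overlapping arrays (7.74, 7.56 and 7.89 with DMSO, 7.86, 8.03 and 8.14 with the combination). In RS4;11 (0.10 ± 0.12) and REH (-0.09 ± 0.17) TFEB was not called.

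**Figure D4:**
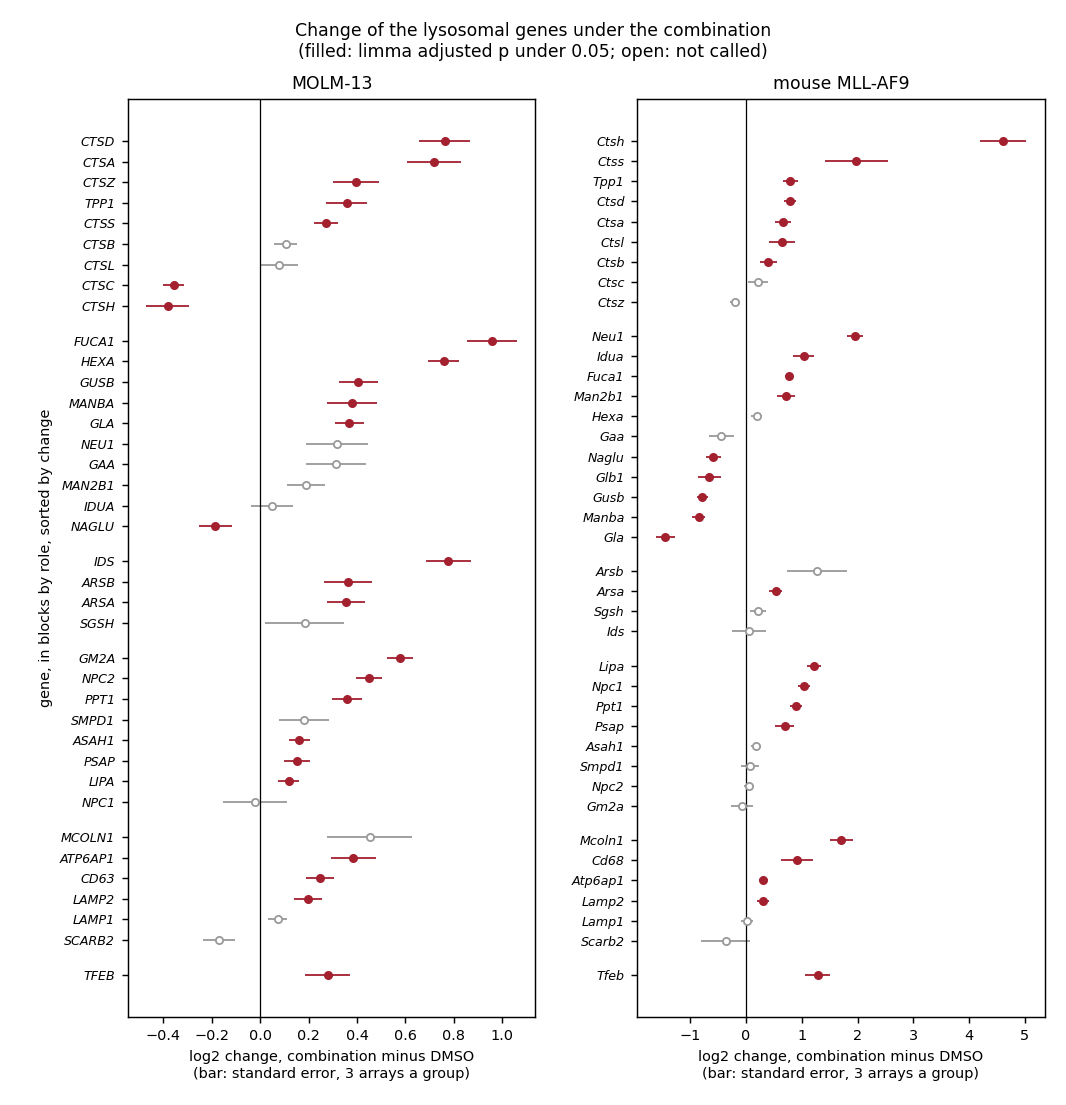
Log2 change, combination minus DMSO, of each measured lysosomal gene in MOLM-13 (left) and the mouse MLL-AF9 cells (right), in blocks by role; points are limma estimates from 3 arrays a group, bars are standard errors, filled points are called and open points are not. MOLM-13 changes run from -0.38 (CTSH) to 0.96 (FUCA1), and mouse changes from -1.45 (Gla) to 4.61 (Ctsh), on axes of different width.

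Promoters were examined for the element that TFEB and its relatives bind, because it is the known target of this regulator. Windows from 250 bases before to 50 bases after the start of transcription (RefSeq, GRCh38.p14) were at hand for 30 of the 40 members, in 44 windows. The core hexamer CACGTG, searched on both strands, which are the same for a palindrome, was in 8 of the 44 windows (18.2%), against 7.26% of 35116 windows of all genes. The longer TCACGTG, which contains it, was found in 7 windows (15.9%, against 3.71% of all windows). The stretches below are from 5 members with 1 window each and are shown because they carry the hexamer, which is in capitals, with some flanking bases and none from the start onward. They are written 5' to 3' on the strand of the gene: LAMP1 at chr13:113297027-113297236 (plus strand, 5 hexamers), CTSA at chr20:45891273-45891334 (plus strand, 2), CTSD at chr11:1763949-1763994 (minus strand, 1), GAA at chr17:80101485-80101575 (plus strand, 2) and MCOLN1 at chr19:7522563-7522623 (plus strand, 2).
LAMP1: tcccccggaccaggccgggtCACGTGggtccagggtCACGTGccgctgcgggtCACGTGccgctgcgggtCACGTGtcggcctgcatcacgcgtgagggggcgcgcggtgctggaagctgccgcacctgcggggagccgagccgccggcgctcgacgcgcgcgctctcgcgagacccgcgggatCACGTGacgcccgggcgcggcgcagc
CTSA: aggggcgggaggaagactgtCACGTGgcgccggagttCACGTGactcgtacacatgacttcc
CTSD: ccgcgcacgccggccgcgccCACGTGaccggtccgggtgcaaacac
GAA: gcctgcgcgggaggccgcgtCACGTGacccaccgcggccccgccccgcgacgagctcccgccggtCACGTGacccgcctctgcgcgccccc
MCOLN1: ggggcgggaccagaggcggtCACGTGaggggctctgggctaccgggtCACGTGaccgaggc

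The members with the hexamer were ARSB, CD63, CTSA, CTSD, GAA, LAMP1, MCOLN1 and NEU1, and their changes varied widely. With the combination in MOLM-13 their median change was 0.34 (0.07 to 0.76, 4 of 8 called higher), against 0.32 over 20 tested members whose windows lacked it (12 called higher, 2 lower). In SEM the medians were -0.04 with the hexamer (2 called higher, 1 lower, of 8) and 0.22 without it (8 higher, 3 lower, of 19). In the mouse cells they were 0.79 with it (4 higher, 0 lower, of 7) and 0.48 without it (12 higher, 3 lower, of 22). Mouse genes were sorted by the windows of their human orthologs, and mouse promoters were not examined. In RS4;11 the medians were -0.01 and 0.00, and in REH -0.21 and -0.14. Of all genes, 23.7% were called higher and 25.8% lower in MOLM-13. These shares were 14.3% and 15.2% in SEM, and 28.5% and 36.2% in the mouse cells. LAMP1, with the most hexamers in its window, was called in no model, whereas CTSA and CTSD rose in MOLM-13 and the mouse cells. A match describes letters in a window and shows no binding.

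The combination was also set against each compound. In RS4;11, 7 members were higher and 1 lower than with EPZ004777 alone (19.6% of all genes, 10% higher and 9.56% lower), and 4 were higher and 2 lower than with MI-2-2 alone (10.7% of all genes, 6.76% higher and 3.91% lower). In SEM 15 were higher and 4 lower than with EPZ004777 (26.9% of all genes, 15.4% higher and 11.5% lower). Against MI-2-2 limma called 1 SEM member (4.72% of all genes, 2.79% higher and 1.93% lower), which was CTSC with -0.61 ± 0.07 (limma adjusted p = 0.00223). In REH limma called 0 members against EPZ004777 (0.108% of all genes, 0.0648% higher and 0.0432% lower) and 0 against MI-2-2 (1.81% of all genes, 1.63% higher and 0.18% lower), with 1 and 3 members at an unadjusted p under 0.05 (7.27% and 8.32% of all genes). In MOLM-13, 13 were higher and 3 lower than with EPZ004777 (33.3% of all genes, 14.4% higher and 18.9% lower), and 22 higher and 2 lower than with MI-2-2 (39.6% of all genes, 17.9% higher and 21.7% lower). In the mouse cells, 19 were higher and 7 lower than with EPZ004777 (63.5% of all genes, 28.6% higher and 34.8% lower), and 20 higher and 6 lower than with MI-2-2 (62.6% of all genes, 28.9% higher and 33.8% lower). In RS4;11 the largest differences from EPZ004777 alone were in CTSH (-1.43 ± 0.12, limma adjusted p = 1.05e-05) and SMPD1 (1.05 ± 0.13, limma adjusted p = 0.000203).

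Departure from the sum of the single effects was tested as the interaction, which is the combination effect less both single effects. It was called for 2 members in RS4;11 (1.96% of all genes, 1.07% higher and 0.894% lower), GM2A (0.41 ± 0.09, limma adjusted p = 0.039) and PSAP (0.40 ± 0.08, limma adjusted p = 0.0394). With any 1 array left out, it was called for 0 or 1 member, and the shares of all genes in those fits are not given here. In SEM (1.01% of all genes, 0.444% higher and 0.566% lower) and REH (0% of all genes, 0% higher and 0% lower) limma called 0 members, with 4 and 2 at an unadjusted p under 0.05 (13.2% and 5.26% of all genes). In MOLM-13 it was called for 4 (12.9% of all genes, 4.07% higher and 8.78% lower). CTSH (0.75 ± 0.13, limma adjusted p = 0.00379), ARSB (0.69 ± 0.14, limma adjusted p = 0.00949) and TFEB (0.54 ± 0.13, limma adjusted p = 0.0207) lay above the sum, and CTSL (-0.60 ± 0.11, limma adjusted p = 0.00505) below it. In the mouse cells it was called for 22 of 39, 16 above and 6 below (48.2% of all genes, 22.3% higher and 25.9% lower). Ctsh (2.06 ± 0.58, limma adjusted p = 0.0141), Tfeb (1.70 ± 0.32, limma adjusted p = 0.00148) and Mcoln1 (1.69 ± 0.30, limma adjusted p = 0.00101) lay above the sum, and Arsb (-2.88 ± 0.75, limma adjusted p = 0.00949) below it. Without combination replicate 1 and with replicate 1 alone, respectively, the interaction was 2.03 and 2.12 for Ctsh, 1.96 and 1.19 for Tfeb, 1.94 and 1.18 for Mcoln1, and -3.73 and -1.17 for Arsb.

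RS4;11, SEM and REH shared doses and duration, so that their effects were compared directly, as the mean effect in the KMT2A-AFF1 lines minus that in REH. With EPZ004777, 3 of 38 members differed (5.27% of all genes, 2.49% higher and 2.77% lower): CTSH (-0.88 ± 0.15, limma adjusted p = 0.000458), CTSC (0.47 ± 0.10, limma adjusted p = 0.00683) and GM2A (0.43 ± 0.11, limma adjusted p = 0.0171). CTSC thus fell less in the KMT2A-AFF1 lines than in REH. With MI-2-2, 7 differed, 6 higher and 1 lower (13.7% of all genes, 7.93% higher and 5.73% lower). SMPD1 (1.05 ± 0.23, limma adjusted p = 0.00284), FUCA1 (0.66 ± 0.14, limma adjusted p = 0.00298) and GM2A (0.53 ± 0.11, limma adjusted p = 0.00177) were higher and CTSH (-1.02 ± 0.15, limma adjusted p = 5.14e-05) lower. With the combination, 12 differed, 10 higher and 2 lower (20.7% of all genes, 10% higher and 10.6% lower). The largest were in CTSH (-2.01 ± 0.15, limma adjusted p = 4.46e-10), SMPD1 (1.26 ± 0.23, limma adjusted p = 0.000247), GM2A (1.03 ± 0.11, limma adjusted p = 1.39e-07) and SGSH (0.66 ± 0.20, limma adjusted p = 0.0223). The second lower member was CTSL (-0.66), which failed the filter in RS4;11 and SEM and entered through REH, so that its difference supports nothing. In SEM, CTSH signals with MI-2-2 and the combination lay below the filter's level, as given above. These differences use the 3 REH DMSO arrays. Replicates 1 and 3 had actin values of 3.11 and 3.65, above those of the treated REH arrays, and replicate 2 had 2.75, within their range. Without DMSO replicate 2 of REH, which leaves the 2 DMSO arrays with high actin values, the counts became 5, 16 and 19. Without DMSO replicate 1, the array that stood apart in B-lineage markers, they became 2, 5 and 7. The shares of all genes called in these fits are not given here.

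Within the KMT2A-AFF1 lines, SEM and RS4;11 also differed. With EPZ004777 limma called 0 of 38 members for SEM minus RS4;11 (3.92% of all genes, 1.98% higher and 1.94% lower), with 2 at an unadjusted p under 0.05 (13.95% of all genes). With MI-2-2 it called 6, 4 higher and 2 lower in SEM (6.69% of all genes, 4.1% higher and 2.59% lower). Among them were CTSB (0.63 ± 0.19, limma adjusted p = 0.0435), MANBA (-0.63 ± 0.17, limma adjusted p = 0.0248), GM2A (0.62 ± 0.14, limma adjusted p = 0.00543) and FUCA1 (0.61 ± 0.18, limma adjusted p = 0.0434). After renewed quantile normalization 4 were called, without CTSB and PSAP, and with 1 array left out 2 to 6 (2 without either RS4;11 DMSO array or SEM DMSO replicate 3). For these fits the shares of all genes called are not given here. With the combination it called 6, 4 higher and 2 lower (12.8% of all genes, 6.29% higher and 6.5% lower). Among them were CTSZ (1.02 ± 0.21, limma adjusted p = 0.00137), MANBA (-0.87 ± 0.17, limma adjusted p = 0.000792), CTSB (0.72 ± 0.19, limma adjusted p = 0.0109) and FUCA1 (0.70 ± 0.18, limma adjusted p = 0.0103).

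Untreated levels differed between MOLM-13 and the lymphoid lines. The distribution of all signals was also different, with array medians of 6.18 to 6.25 in MOLM-13 and 5.54 to 5.66 in the lymphoid lines, and the median gene was 0.70 higher in MOLM-13. Of 38 members, 35 were called higher and 1 lower with DMSO (89.4% of all genes, 70.8% higher and 18.7% lower), and after renewed quantile normalization 29 higher and 6 lower. The share of all genes called after that normalization is not given here. Relative to the median gene, ARSB stood 3.22 higher, CTSH 1.97 and ASAH1 1.85, and CTSL was high in MOLM-13 but below the filter in RS4;11 and SEM. The median member stood 1.40 higher without that correction, and 0.69 after quantile normalization, where the median gene was at 0.00. The lymphoid lines differed widely in CTSH, with DMSO means of 9.27 in RS4;11, 7.8 in REH and 5.62 in SEM (10.23 in MOLM-13).

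Other lysosomal genes were counted in the same way, to be read against the shares of all genes called higher and lower, which were 23.7% and 25.8% for MOLM-13, 14.3% and 15.2% for SEM, and 28.5% and 36.2% for the mouse model. The share called in total was near that of all genes for sorting and autophagy genes in MOLM-13. So it was for proton pump subunits and membrane proteins in SEM, and for proton pump, sorting, autophagy and nutrient-sensing genes in the mouse cells. Of the subunits of the V-ATPase, the proton pump that acidifies lysosomes, 11 higher and 1 lower of 15 tested were called with the combination in MOLM-13, 9 higher and 1 lower of 14 in the mouse cells and 3 higher and 2 lower of 15 in SEM. The corresponding counts among other lysosomal enzymes were 10 higher and 4 lower of 19, 9 higher and 7 lower of 20 and 4 higher and 4 lower of 16. For other lysosomal membrane proteins they were 9 higher and 5 lower of 24, 13 higher and 4 lower of 23 and 4 higher and 3 lower of 22. Genes that sort enzymes to the lysosome gave 5 higher and 3 lower of 15 in MOLM-13 and 7 higher and 4 lower of 16 in the mouse cells, and autophagy genes 7 higher and 4 lower of 22 and 12 higher and 3 lower of 22. TFE factors and genes of nutrient sensing gave 9 higher and 3 lower of 19 and 10 higher and 2 lower of 19. In REH none of these lists had a called gene with the combination in limma except 1 lower among the other enzymes (7.03% of all genes, 4.1% higher and 2.93% lower).

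Myeloid markers also changed with the combination, including in RS4;11, where the share of lysosomal genes called was near that of all genes. A relation between the markers and the lysosomal genes was not tested. With the combination, 7 of 8 tested markers rose in MOLM-13, 8 of 9 in SEM, 3 of 6 in RS4;11 and 10 of 12 in the mouse cells, where 1 fell, and in REH 1 of 8 rose and 1 fell. Of these markers 11 were measured in each human line and 12 in the mouse cells. A marker low with DMSO could pass the filter through treated arrays alone, and markers low throughout were left out. Marker counts here and below are therefore a description. Over all genes 23.7% were called higher in MOLM-13, 14.3% in SEM, 11.2% in RS4;11, 28.5% in the mouse cells and 4.1% in REH. Shares called lower were 25.8% in MOLM-13, 15.2% in SEM, 12.4% in RS4;11, 36.2% in the mouse cells and 2.93% in REH. Counts of the other markers below are to be read against these shares. The mean signal over the measured markers in MOLM-13 was 8.66 to 8.71 with DMSO and 9.77 to 9.88 with the combination. In SEM it was 5.09 to 5.14 and then 6.90 to 7.11, in RS4;11 5.37 to 5.45 and then 5.75 to 5.83, and in the mouse cells 8.11 to 8.93 and then 10.91 to 11.38. In REH it was 5.92 to 6.00 with DMSO and 5.95 to 6.13 with the combination. LYZ, lysozyme, changed by 6.33 ± 0.12 in SEM and 1.38 ± 0.16 in RS4;11, ITGAM, an integrin of phagocytes, by 3.36 ± 0.12 and 1.52 ± 0.17, and CD14 by 4.74 ± 0.09 in MOLM-13. Of the B-lineage markers 2 higher and 2 lower of 5 were called in SEM, 3 higher and 0 lower of 5 in RS4;11, 0 higher and 0 lower of 4 in REH and 0 higher and 2 lower of 4 in the mouse cells. CD79A rose by 0.88 ± 0.08 in SEM, while PAX5 fell by 0.35 there. In MOLM-13 the B-lineage mean was 5.025 to 5.295 with DMSO and 4.993 to 5.165 with the combination. None of the 5 T-lineage markers passed the filter in a lymphoid line. In MOLM-13 their mean was 4.926 to 5.03 with DMSO and 5.461 to 5.545 with the combination, and CD3D changed by 1.77 ± 0.11. The T-lineage mean in the mouse cells was 4.629 to 4.671 and then 5.059 to 5.404. Counts called for these lists in MOLM-13, and for the T-lineage list in the mouse cells, are not given here. Of the erythroid markers 1 higher and 0 lower of 2 tested were called in MOLM-13, 1 higher and 0 lower of 1 in SEM, 1 higher and 0 lower of 2 in RS4;11, 0 higher and 0 lower of 2 in REH and 0 higher and 1 lower of 1 in the mouse cells. Among the stromal markers the counts were 1 higher and 1 lower of 2, 2 higher and 0 lower of 3, 1 higher and 0 lower of 2, 1 higher and 0 lower of 1 and 1 higher and 0 lower of 1 in the same order, and the REH gene was COL1A1 (0.75 ± 0.14).

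Some members were read on probe sets that may also bind other transcripts, those whose identifiers end in _s_at or _x_at. In human these were CTSB, CTSH, CTSL, CTSZ, TPP1, HEXA, IDUA, NAGLU, MAN2B1, IDS, ARSB, ASAH1, SMPD1, PSAP, LAMP1, MCOLN1 and ATP6AP1, and in mouse Ctsz, Fuca1, Lipa, Mcoln1 and Atp6ap1. Other probe sets of the called members mostly had the same sign: with the combination the sign was opposite for 2 of 38 in MOLM-13, 2 of 24 in SEM, 3 of 15 in RS4;11, 0 of 3 in REH and 7 of 28 in the mouse cells.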

How the data were processed

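The deposited values are log2 signals that the authors made with RMA (affy package, R 3.0.2, per the submitters' processing notes). RMA corrects background, normalizes by quantiles and summarises each probe set. Whether all arrays were normalized in 1 run is not given in the sources used here. Groups were taken from the sample labels. The members and lists were chosen with earlier results of these data known.

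Probe sets were named from the platform annotation where it gave 1 symbol. For each cell model a linear model of the 4 treatments was fitted to all genes tested (13365 to 14060) with limma 3.58.1 in R 4.3.3, and p-values were adjusted by Benjamini-Hochberg over all of them. Effects of RS4;11, SEM and REH were compared in 1 fit of their 32 arrays, and DMSO levels in 1 fit of the 44 human arrays. Named genes were, per model and treatment, up to 8 largest called rises and 5 falls, up to 4 called members for each further comparison, CTSC as a member called the same way in 4 models, and TFEB, LAMP1 and CTSD always. Other members and markers named were chosen after their values were seen.

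Arrays have no read depth, so precision rests on how many arrays a group has. On simulated data, the combination fit recovered 64% of genes changed by 0.5 on the log2 scale in RS4;11 (13867 genes), 28% in SEM (13967), 42% in REH (13888), 70% in MOLM-13 (14060 genes) and 26% for the mouse (13365). Only 200 genes were changed in each simulation, at several sizes. This is fewer than were called with the combination in any model, so these shares need not hold for the real fits. P-values measure the spread between arrays labelled as biological replicates, with no further detail of how the cultures were separated.

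The alternatives were no filter, renewed quantile normalization, the mean of probe sets, the probe set highest over the arrays of the fit, a replicate block, the actin value as a covariate, a fit of all human arrays, each array left out, REH DMSO replicates 1 and 3 left out, and mouse combination replicates 2 and 3 left out. In the last 2, the lone array of a group is assumed to vary like the other groups. Same-numbered arrays deviated together (correlation over 0.1) in 2 of 15 pairs in RS4;11, 2 of 10 in SEM, 5 of 18 in REH, 3 of 18 in MOLM-13 and 9 of 18 for the mouse, so the numbers were not taken to pair the samples.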

Additional observations from a re-analysis of the deposited data

Results flagged for a closer look

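Several members responded differently in the KMT2A-AFF1 lines and in REH, by a limma test of the difference itself (mean effect in RS4;11 and SEM minus effect in REH, log2 scale). With EPZ004777 the difference was -0.88 for CTSH, 0.47 for CTSC and 0.43 for GM2A. With MI-2-2 it was 1.05 for SMPD1, -1.02 for CTSH, 0.66 for FUCA1 and 0.53 for GM2A. With the combination it was -2.01 for CTSH, 1.26 for SMPD1, 1.03 for GM2A and 0.66 for SGSH. In SEM, CTSH passed the filter only through its DMSO and EPZ004777 arrays, and REH DMSO replicate 1, which stood apart in B-lineage markers, enters each of these differences.

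SEM and RS4;11 also differed by the same kind of test (SEM effect minus RS4;11 effect). With MI-2-2 the difference was 0.63 for CTSB, -0.63 for MANBA, 0.62 for GM2A and 0.61 for FUCA1, and CTSB was not called after renewed quantile normalization. With the combination it was 1.02 for CTSZ, -0.87 for MANBA, 0.72 for CTSB and 0.70 for FUCA1. With the actin value as a covariate in the SEM fit, the SEM change of MANBA itself was 0.040 and not called.

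In MOLM-13 and the mouse MLL-AF9 cells, which were on different arrays, some members were called in opposite directions, with every array of each group on that side of DMSO; the difference between the species was not tested. With EPZ004777, CTSH changed by -0.50 in MOLM-13 and Ctsh by 1.62 in the mouse cells. With the combination the changes were -0.38 for CTSH and 4.61 for Ctsh, 0.37 for GLA and -1.45 for Gla, 0.41 for GUSB and -0.78 for Gusb, and 0.38 for MANBA and -0.85 for Manba. Without mouse combination replicate 1, and with replicate 1 alone, the changes were 4.58 and 4.67 for Ctsh, -1.68 and -0.98 for Gla, -0.88 and -0.58 for Gusb, and -0.99 and -0.55 for Manba. A second Gla probe set changed by 0.63, and with the mean of both Gla changed by -0.25 and was not called.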

How the results depend on the processing

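Counts below are members called, with the count of the report first. For these settings, and for the fits with an array left out, the shares of all genes called are not given here. A count that moved may thus have moved for all genes as well. With the replicate block, EPZ004777 calls went from 1 to 0 in RS4;11, 4 to 2 in SEM, 2 to 1 in REH and 3 to 1 in the mouse cells, MI-2-2 calls in RS4;11 from 4 to 2, its interaction from 2 to 0 and the REH combination from 3 to 1. Under the same block the differences of the KMT2A-AFF1 lines from REH went from 7 to 4 (MI-2-2) and 12 to 7 (combination), and those of SEM from RS4;11 from 6 to 2 and 6 to 3. With the actin covariate, SEM calls went to 0 for EPZ004777 (from 4), MI-2-2 (12), the combination (17) and combination against EPZ004777 (19), and from 1 to 2 for combination against MI-2-2. That covariate also moved RS4;11 EPZ004777 from 1 to 0 and interaction from 2 to 0, REH EPZ004777 from 2 to 1, combination from 3 to 1 and combination against MI-2-2 from 0 to 1, MOLM-13 combination against MI-2-2 from 24 to 14, mouse MI-2-2 from 2 to 4, SEM minus RS4;11 from 0 to 1 (EPZ004777) and 6 to 10 (MI-2-2), and the difference from REH under MI-2-2 from 7 to 4. In the fit of all 44 human arrays, REH calls went from 2 to 9 (EPZ004777), 0 to 7 (MI-2-2), 3 to 9 (combination) and 0 to 2 (combination against MI-2-2), and MOLM-13 calls from 13 to 8, 6 to 3, 16 to 10 (combination against EPZ004777) and 4 to 1 (interaction). The same fit moved RS4;11 EPZ004777 from 1 to 2, its interaction from 2 to 0 and SEM combination against MI-2-2 from 1 to 3. Without the filter, the RS4;11 interaction went from 2 to 0 and mouse MI-2-2 from 2 to 1; with renewed quantile normalization they went to 1 and 0. REH combination against MI-2-2 went from 0 to 1 with the mean of probe sets and without DMSO replicates 1 and 3, and mouse MI-2-2 from 2 to 7 without combination replicates 2 and 3. The cause was not tested.

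Leaving out each array in turn, MOLM-13 counts ranged from 4 to 14 (MI-2-2; 14 without MI-2-2 replicate 1) and 14 to 29 (combination against MI-2-2). REH counts ranged from 1 to 6, 0 to 12 and 1 to 11 for EPZ004777, MI-2-2 and the combination, the last 2 highest without DMSO replicate 2, and 0 to 1 for combination against MI-2-2. RS4;11 counts ranged from 0 to 1, 1 to 4 and 5 to 11 (5 without DMSO replicate 2), then 5 to 8 and 3 to 7 for the combination against EPZ004777 and MI-2-2, and 0 to 1 for the interaction. SEM counts ranged from 0 to 4 for EPZ004777, 7 to 13 for MI-2-2 (7 without DMSO replicate 3), 10 to 19 and 1 to 2 for the combination against each compound. Mouse counts ranged from 0 to 4 and 0 to 6 for the single compounds. Differences from REH ranged from 2 to 5, 4 to 16 and 7 to 19, and SEM minus RS4;11 under MI-2-2 from 2 to 6. Combination counts ranged from 21 to 30 in MOLM-13, 22 to 29 in the mouse cells and 13 to 18 in SEM.

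Some member changes reversed. With the actin covariate in SEM, the MI-2-2 change became 0.43 for CTSH, 0.11 for MANBA and -0.50 for SMPD1, and the combination change -0.023 for GLA, 0.040 for MANBA and -0.33 for SMPD1. With the mean of probe sets, LIPA in MOLM-13 became -0.027 (EPZ004777) and -0.21 (combination), LAMP2 0.28 (EPZ004777) and NPC1 0.19 (combination), and mouse Lipa -0.13. Mouse combination Ids (0.05) turned to -0.43 without replicate 1 and ranged up to 0.31 with another array left out, and Gm2a 0.47 and Scarb2 1.05 with replicate 1 alone.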
